A study of Mus musculus with 6 samples.

Results

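The 10 mature miRNAs described here are products of 2 paralogous clusters, mir-23a/27a/24-2 on chromosome 8 and mir-23b/27b/24-1 on chromosome 13. They were chosen by name from the 1011 rows of a table of miRNA read counts, and all 10 were listed. The first cluster gives mmu-miR-23a-3p, mmu-miR-27a-5p, mmu-miR-27a-3p and mmu-miR-24-2-5p, the second mmu-miR-23b-3p, mmu-miR-23b-5p, mmu-miR-27b-3p, mmu-miR-27b-5p and mmu-miR-24-1-5p, and both give mmu-miR-24-3p (the prefix for mouse is left out below). Small RNA had been sequenced from mouse pancreatic islets, the endocrine tissue that secretes insulin and glucagon. The mice had received a diet labelled HFD or one labelled NCD, 3 libraries each, and no other treatment is named. The study as a whole is about vesicles that visceral adipocytes release and their cargo miR-27a-5p. The labels used here name no strain, sex, age or feeding time. They do not say if each library was 1 animal or a pool, so p-values measure only the spread between these libraries, which may be technical.

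A miRNA hairpin is cut into a duplex whose strands come from its 5p and 3p arms, and 1 strand is usually loaded into an Argonaute protein while the other is mostly degraded. The loaded strand finds its targets through the seed, bases 2 to 8 from its 5′ end. The hairpins of a cluster are made from a common primary transcript, but each mature product has its own processing and stability. The mir-23a cluster is an intergenic unit best known in blood and muscle cells, and the mir-23b cluster lies within a protein-coding gene and is well expressed in endothelium. miR-27-3p is known as a repressor of lipid and adipocyte genes, among them Pparg.

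In these islets the ratio of the mir-23a to the mir-23b cluster was not the same for the different products. By read count, miR-27a-3p stood at 0.0272 of miR-27b-3p, miR-23a-3p at 0.439 of miR-23b-3p, miR-27a-5p at 1.38 of miR-27b-5p and miR-24-2-5p at 2.06 of miR-24-1-5p (geometric means of the 6 libraries). By arm, mir-27a thus had 50.6-fold more 5p per 3p than mir-27b. None of the 10 miRNAs passed the test between diets at an adjusted p of 0.05.

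The sequences are shown because the paralogs differ in how many bases tell them apart. The 3p pairs share their seed (in capitals) and differ by 1 base. The seeds of the miR-27 5p arms differ.
miR-27a-3p: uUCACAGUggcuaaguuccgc
miR-27b-3p: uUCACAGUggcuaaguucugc
miR-23a-3p: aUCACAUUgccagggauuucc
miR-23b-3p: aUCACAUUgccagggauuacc
miR-27a-5p: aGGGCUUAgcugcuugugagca
miR-27b-5p: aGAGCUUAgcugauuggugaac
miR-24-2-5p: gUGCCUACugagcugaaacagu
miR-24-1-5p: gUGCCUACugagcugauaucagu
miR-24-3p: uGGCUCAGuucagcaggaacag

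Counted from 1 at the 5′ end, miR-27a-3p and miR-27b-3p are distinguished by C19U and miR-23a-3p and miR-23b-3p by U19A, with the first 18 bases identical in each pair. A read that ended before that base would match both paralogs, and how such reads were assigned is not stated in the labels or the file. For another pair, miR-467a-5p and miR-467b-5p, the log2 ratio of counts was 0 in all 6 libraries. miR-24-3p and miR-3074-5p, its reverse complement over 20 bases, held 92010 and 91969 reads, and other such rows are given below. Whether 1 read was counted in more than 1 row was not tested, nor what this would do to the 3p ratios. miR-24-2-5p and miR-24-1-5p share their first 16 bases and their seed. miR-27a-5p and miR-27b-5p share only their first 2 bases before G3A, a seed difference, and differ at 8 positions when laid side by side without gaps. With gaps allowed, 18 of 23 aligned positions were identical. Among the other listed miRNAs, none had the seed of miR-27a-5p, miR-27b-5p, miR-24-3p or miR-23b-5p, and the 3p pairs and the miR-24 5p pair each shared theirs only with each other. miR-24-3p is the same molecule from either cluster, so its reads cannot be divided between them.

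The hairpins of mir-27a and mir-27b are shown with both arms in capitals, because their arm ratios differed most.
mir-27a: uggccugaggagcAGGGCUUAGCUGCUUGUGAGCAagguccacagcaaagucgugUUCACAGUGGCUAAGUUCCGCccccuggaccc
mir-27b: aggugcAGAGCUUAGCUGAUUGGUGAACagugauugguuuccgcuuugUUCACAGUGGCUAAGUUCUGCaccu

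In RefSeq on GRCm38 the mir-27a hairpin lies at chr8:84208672-84208758 and the mir-27b hairpin at chr13:63300712-63300784, both on the plus strand. The mir-23a cluster spans 404 bases, from 84208518 to 84208921. In GENCODE, mir-23a and mir-27a overlap no gene other than their own, and mir-24-2 overlaps an exon of the long non-coding RNA gene Gm26532. The mir-23b cluster spans 792 bases, from 63300484 to 63301275, within the protein-coding gene 2010111I01Rik. mir-23b lies in an intron of it and mir-27b and mir-24-1 overlap annotated exons, while Fancc runs on the opposite strand with an intron over all 3. By name, 9 of the 10 members were found among the RefSeq mature miRNAs, with the same sequence as deposited. miR-23b-3p was not found by name, but its deposited sequence lies in the RefSeq mir-23b hairpin, from base 46.

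The libraries held 7166712 to 11172255 counts, and 406 miRNAs passed the filter on low counts, the 10 members among them. Levels are given in CPM, the count over the library total after scaling by TMM, edgeR's composition factor, and each is the level of 1 mature miRNA of 21 to 23 bases. NCD 3 stood apart, with a factor of 1.73 against 0.84 to 0.995 in the other libraries. The 5 endocrine islet markers, led by miR-375-3p, summed to 449446 to 548906 CPM in HFD and 262239 to 602733 CPM in NCD libraries, lowest in NCD 3. Markers of other cells were also present. The 4 acinar markers summed to 20.2 to 205 CPM in HFD and 111 to 418 CPM in NCD libraries. The 2 endothelial markers gave 299.8 to 434 and 346 to 748 CPM, and the 5 leukocyte markers 6.18 to 13.3 and 13.02 to 30.4 CPM. The liver marker ranged from 34.1 to 68.3 CPM in HFD and from 61.3 to 757 CPM in NCD libraries, highest in NCD 1. Fibroblast and smooth muscle (1325 to 4969 and 1511 to 2972 CPM), erythroid (41.3 to 134 and 33.4 to 126.7 CPM) and muscle markers (14.2 to 62.1 and 52.8 to 127.7 CPM) were also found. None of these markers was at 0 in all libraries, but miR-216a-5p and miR-216a-3p of the acinar list, miR-144-3p of the erythroid and miR-133a-3p of the muscle list were at 0 in at least 1 library, and the part of such cells in the results below was not tested. In such samples, fewer cells of a type and less RNA per cell cannot be told apart.

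miR-27b-3p and miR-24-3p made up most of the reads of the members. miR-27b-3p took 61.0% to 77.0% and miR-24-3p 18.4% to 31.0% of the reads of the 10 members in a library, and all 10 together took 0.507% to 0.832% of a library's reads. The products of mir-27b, mir-23b and mir-24-1 that can be told apart summed to 0.378% to 0.624% of a library, and those of mir-27a, mir-23a and mir-24-2 to 0.0146% to 0.0371%. In HFD islets the mean levels fell in the order miR-27b-3p, miR-24-3p, miR-27a-3p, miR-23b-3p, miR-27a-5p, miR-23a-3p, miR-27b-5p, miR-24-2-5p, miR-24-1-5p and miR-23b-5p. In NCD islets miR-23b-3p stood before miR-27a-3p, with 112.5 ± 25.7 and 109.8 ± 29.7 CPM (SD, n = 3 each), and miR-23a-3p before miR-27a-5p, with 45.2 ± 7.43 and 28.1 ± 4.75 CPM. In HFD islets miR-27a-5p (51.1 ± 15.6 CPM) and miR-23a-3p (43.5 ± 5.03 CPM) overlapped, and miR-23a-3p was the higher in HFD 3. miR-27b-5p (32.4 ± 5.01 CPM) and miR-24-2-5p (26.2 ± 4.79 CPM) also overlapped between libraries, but miR-27b-5p was the higher within each of the 3 HFD libraries. These orders were not tested.

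**Figure D1:**
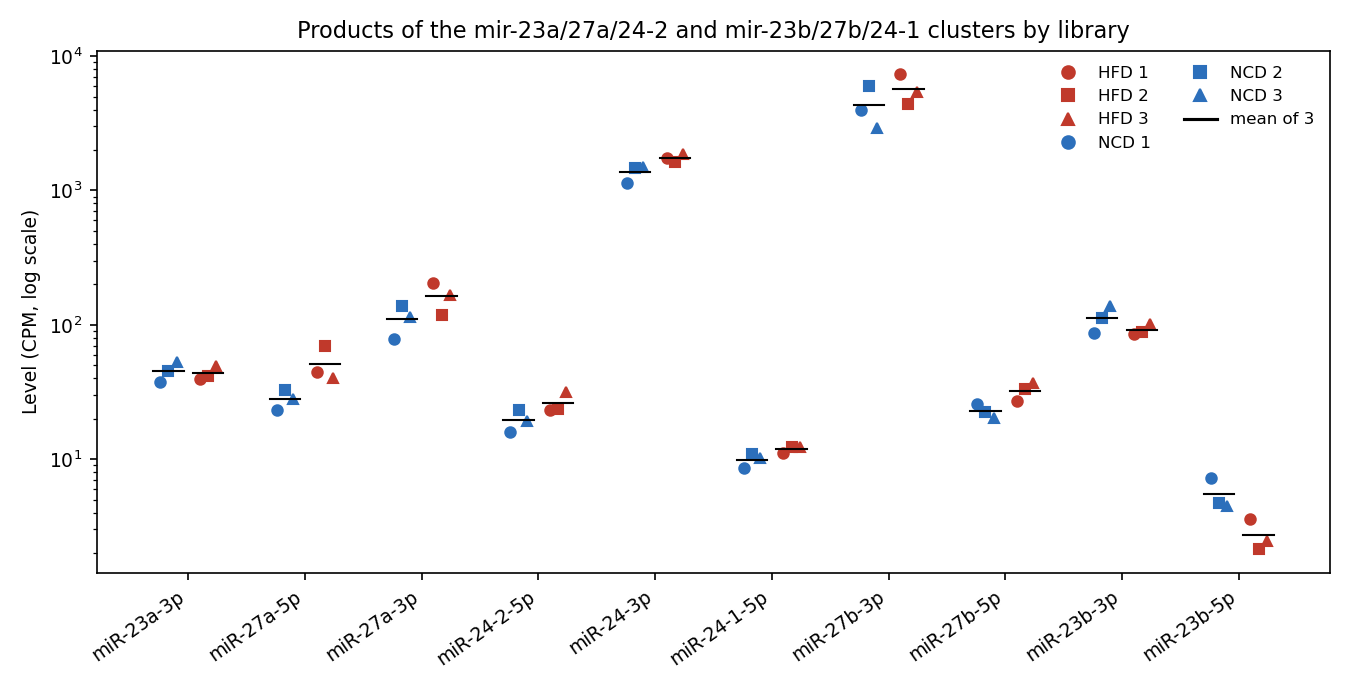
Levels of the 10 miRNAs in each library, in CPM on a log axis, with the libraries of each diet side by side and a line at their mean of 3. miR-27b-3p and miR-24-3p lay far above the other products, and the levels of most products in HFD and NCD libraries lay close together.

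The first comparison asked how each cluster's share depends on the product. For miR-27-3p the reads were 1832, 939 and 1823 of miR-27a-3p beside 65521, 34563 and 59599 of miR-27b-3p in HFD 1, 2 and 3. In NCD 1, 2 and 3 they were 527, 1338 and 1605 beside 26812, 58429 and 41192. miR-27a-3p thus made up 1.93% (NCD 1) to 3.75% (NCD 3) of the reads of the pair, with 95% Wilson intervals of 1.77% to 2.10% and 3.57% to 3.93%, which cover counting error only. In every library the mir-27b product was by far the larger.

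For miR-27-5p, the other strand of the same hairpins, the mir-27a product was the larger in 5 of the 6 libraries. The reads of miR-27a-5p were 397, 547 and 442 in HFD 1, 2 and 3 and 157, 320 and 397 in NCD 1, 2 and 3. Those of miR-27b-5p were 243, 262 and 407, and 173, 219 and 285. miR-27a-5p made up 62.0%, 67.6% and 52.1% of the pair in the HFD and 47.6%, 59.4% and 58.2% in the NCD libraries, and the Wilson interval of NCD 1, the library below 50%, was 42.2% to 52.96%.

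For miR-23-3p the mir-23b product was the larger in all 6 libraries, though by less than for miR-27-3p. miR-23a-3p had 355, 332 and 541 reads in the HFD and 255, 440 and 741 in the NCD libraries. miR-23b-3p had 770, 702 and 1109, and 588, 1089 and 1950.

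The 5p products of mir-24 were the rarer strands and showed the opposite order. miR-24-2-5p had 208, 188 and 349 reads in the HFD and 108, 227 and 272 in the NCD libraries, above miR-24-1-5p in each, which had 100, 98 and 136, and 58, 107 and 143. miR-24-2-5p made up 65.1% to 72.0% of the pair.

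The a to b ratio (mir-23a over mir-23b cluster) was compared between the 4 products with a two-sided exact sign-flip permutation test over the 6 libraries, on the log2 ratio of counts with 0.5 added. Of 6 such comparisons, 5 passed after Benjamini-Hochberg adjustment over the 6. All 6 are made from the same 4 ratios, so the 5 are not separate results. The test asks only if a difference between count ratios recurred across libraries. The ratio of miR-27-5p exceeded that of miR-27-3p by 5.66 ± 0.46 on the log2 scale (SD, n = 6), a 50.6-fold difference that ran from 35.5-fold in HFD 3 to 76.7-fold in HFD 2. The exact p was 0.0312, the smallest that 6 libraries allow, and the adjusted p 0.0375. The ratio of miR-23-3p exceeded that of miR-27-3p by 4.01 ± 0.39, or 16.1-fold, and lay below that of miR-24-5p by a log2 difference of -2.23 ± 0.16 and below that of miR-27-5p by -1.65 ± 0.44 (exact adjusted p = 0.0375 each). The comparison of miR-27-3p with miR-24-5p, a log2 difference of -6.24 ± 0.35, passed at the same p. The ratios of miR-27-5p and miR-24-5p differed by -0.58 ± 0.49, ranging from -1.24 to 0.12, and did not pass (exact adjusted p = 0.0625). Differences in how well each sequence was captured in the libraries, and reads exchanged between miR-27a-3p and miR-27b-3p, were not tested. With any 1 library left out, 5 remain and the smallest exact p is 0.0625, so none could pass, while the difference between miR-27-3p and miR-27-5p stayed between -5.76 and -5.54.

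**Figure D2:**
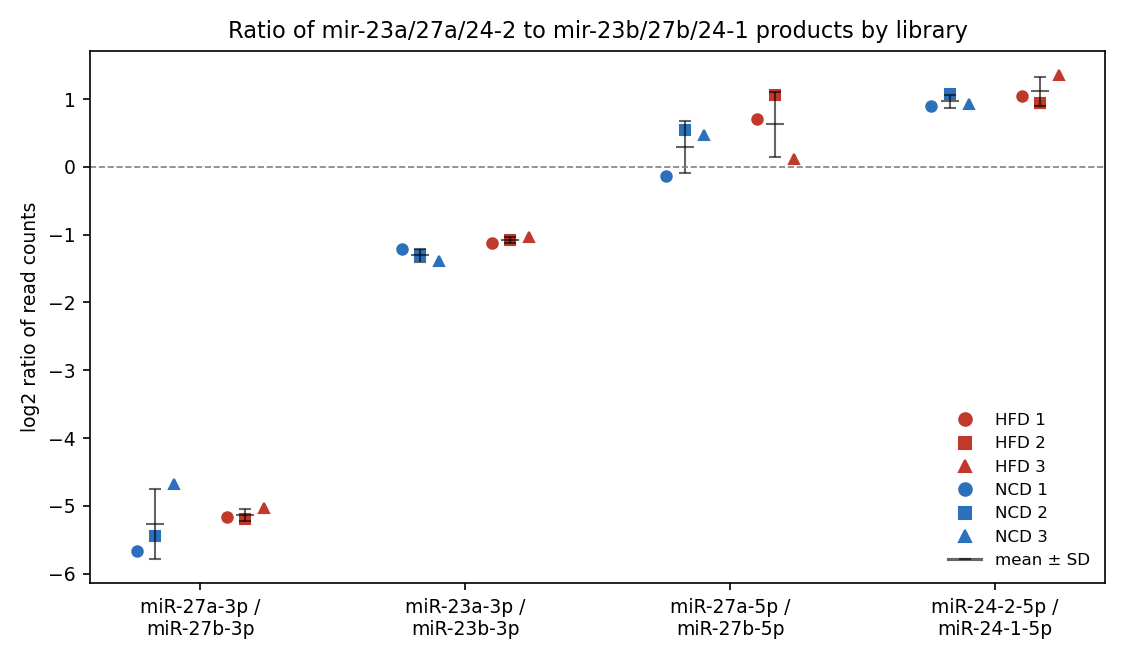
The log2 ratio of the mir-23a to the mir-23b cluster product for 4 products, from read counts with 0.5 added. Points are libraries and bars are the mean ± SD of 3 libraries per diet. The 3p ratios lay below 0 in all 6 libraries, the miR-27 5p ratio above 0 in 5 and the miR-24 5p ratio above 0 in 6.

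The a to b ratios were then compared between diets, with limma over all 36 pairs of rows named as paralogs (letters a and b, or numbers 2 and 1). Among the 36 are the miR-3074 3p pair, whose counts are nearly those of the miR-24 5p pair, and the miR-467 pair, whose ratio does not vary. The miR-126-3p pair repeats the arm ratio of mir-126a with its sign turned in each library, and the miR-486-3p pair nearly repeats that of mir-486a. The 36 are therefore not all separate measurements. Of the 4 products 0 passed, as did 0 of the 36 pairs (0% called). At an unadjusted p under 0.05 there was 1 of the 4, against 11.1% of the 36, and the two-sided exact permutation test, which cannot go below 0.1 with 3 libraries against 3, gave 0. The 1 was miR-23-3p. Its a to b ratio was 0.461, 0.473 and 0.488 in HFD 1, 2 and 3 and 0.434, 0.404 and 0.380 in NCD 1, 2 and 3. All 3 HFD libraries lay above the NCD libraries, which was so in either direction for 16.7% of the 36 pairs. The log2 difference was 0.23 ± 0.08 (SE), with a limma p of 0.0400 and an adjusted p of 0.412, and the exact permutation p was 0.1. As a share of the pair, miR-23a-3p made up 31.6%, 32.1% and 32.8% in HFD 1, 2 and 3 and 30.2%, 28.8% and 27.5% in NCD 1, 2 and 3. The Wilson intervals of the closest libraries overlapped (28.9% to 34.3% in HFD 1 and 27.2% to 33.4% in NCD 1), and those of the farthest did not (30.6% to 35.1% in HFD 3 and 25.9% to 29.3% in NCD 3). These intervals cover counting error only, not the spread between libraries, so they do not test the diets.

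For the other 3 products the diets overlapped. The log2 difference was 0.33 ± 0.32 (SE) for miR-27-5p, 0.15 ± 0.14 for miR-24-5p and 0.14 ± 0.28 for miR-27-3p, with limma adjusted p of 0.568, 0.568 and 0.809. The value for miR-27-3p depended on the NCD libraries: it was 0.43 without NCD 3, 0.044 without NCD 2 and -0.066 without NCD 1. That for miR-27-5p was 0.12 without NCD 1 or HFD 2 and 0.59 without HFD 3, and that for miR-24-5p 0.03 without HFD 3.

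The second comparison concerned the arms. The 5p strand made up 0.370%, 0.752% and 0.678% of the mir-27b reads in HFD 1, 2 and 3, and 0.641%, 0.373% and 0.687% in NCD 1, 2 and 3. The lowest had a Wilson interval of 0.326% to 0.419%. HFD 1 and NCD 2 were the low libraries, so the spread lay within each diet. Beside it, the 5p share of mir-27a was 17.8% to 36.8%, with HFD 2 the highest (34.4% to 39.3%) and the other 5 libraries at 17.8% to 22.95%. HFD 2 was also the highest for mir-27b, but there its 0.752% lay close to the 0.687% of NCD 3.

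Over the 6 libraries, 5p counts over 3p counts had a mean log2 value of -1.81 ± 0.53 (SD) for mir-27a and -7.47 ± 0.47 for mir-27b. Among 117 arm pairs with both arms past the filter, mir-27b had the 4th lowest and mir-27a the 39th lowest mean ratio. Since miR-24-3p comes from both hairpins, each miR-24 5p strand was set against the shared 3p. The mean log2 ratio was -6.10 ± 0.15 (SD) for miR-24-2-5p and -7.14 ± 0.11 for miR-24-1-5p, the 5th and 3rd smallest SD among the 117 pairs, where the median SD was 0.71. The 2 miR-3074 pairs, whose counts are nearly those of the miR-24 rows, stand among the 117 with the 2nd and 6th smallest SD. The smallest, 0.06, was that of mir-486a, whose arms had nearly equal counts (mean log2 ratio -0.06). The 2 miR-24 5p strands together made up 1.93% (HFD 1) to 2.30% (HFD 3) of the miR-24 reads. The mir-23b hairpin had a mean log2 ratio of -4.72 ± 0.66, and rested on 17 to 63 reads of miR-23b-5p per library.

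**Figure D3:**
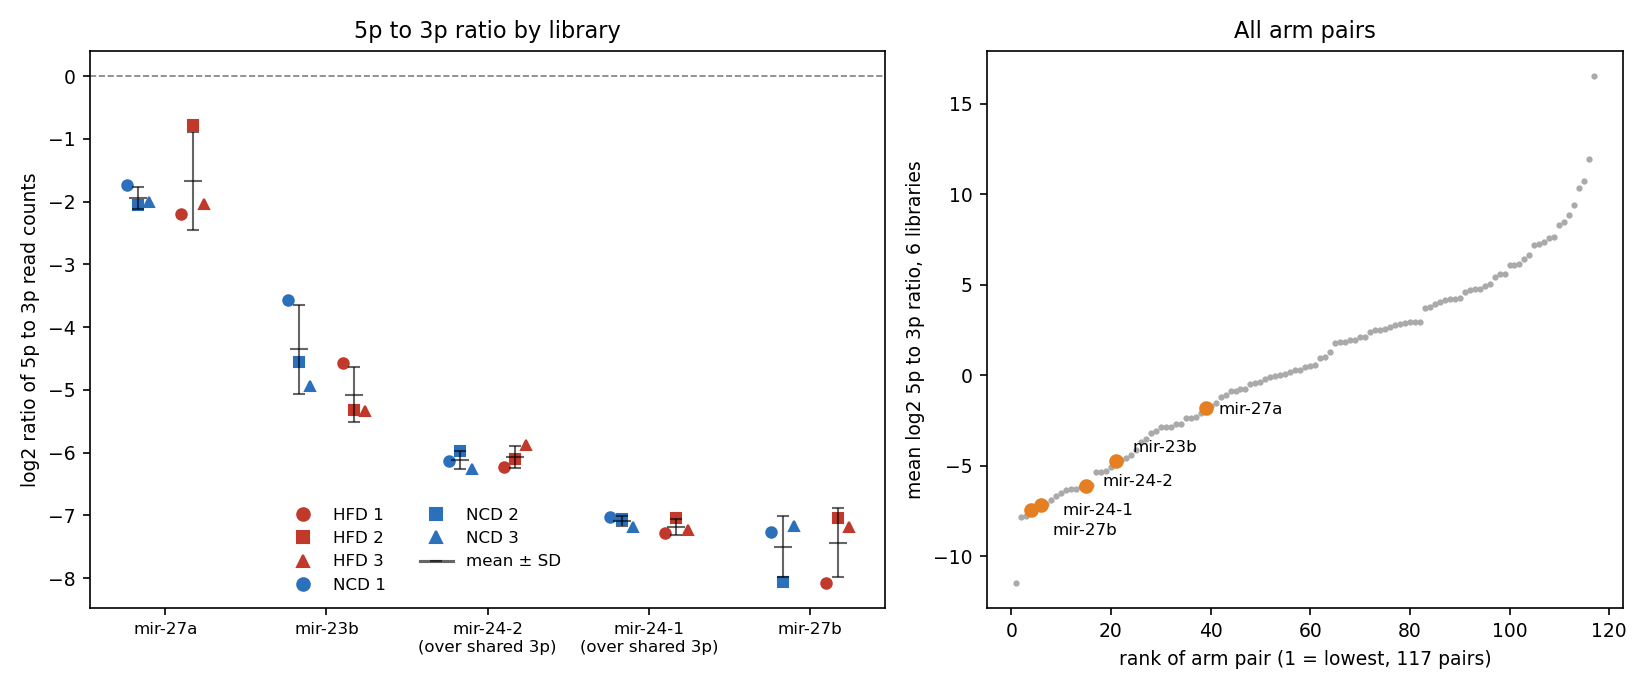
Left, log2 ratio of 5p to 3p read counts by library, with mean ± SD of 3 libraries per diet, where the mir-24 strands are each set over the shared miR-24-3p. Right, the mean ratio of all 117 arm pairs in rising order. mir-27a lay above the other hairpins of these clusters and mir-27b among the lowest of all pairs.

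Between diets, 0 of the 5 arm ratios passed with limma over the 117 pairs, of which 0 passed (0% called). At an unadjusted p under 0.05 there were 0 of the 5 with limma, against 6.84% of the pairs, and 0 with the exact permutation test. The largest difference was that of mir-23b, whose 5p share was 3.99%, 2.36% and 2.38% in HFD 1, 2 and 3 and 7.69%, 4.05% and 3.13% in NCD 1, 2 and 3. Its log2 difference was -0.72 ± 0.48 (SE; limma adjusted p = 0.556) and -0.33 without NCD 1, the highest library. For mir-27a it was 0.26 ± 0.47, for mir-27b 0.07 ± 0.45, for miR-24-2-5p 0.06 ± 0.33 and for miR-24-1-5p -0.09 ± 0.32, with limma adjusted p of 0.926, 0.960, 0.960 and 0.957. The diets overlapped in all 5. Over all 117 pairs the median size of the difference was 0.47, and over these 5 it was 0.09. The difference between the a to b ratios of miR-27-3p and miR-27-5p, which is that between the arm ratios of mir-27b and mir-27a, moved by -0.20 between diets (two-sided exact permutation p = 0.8, not adjusted, and 1 after adjustment over 6 such differences).

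The third comparison asked for each product's level by diet. With edgeR's quasi-likelihood test 0 of the 10 were called, where 0.246% of the 406 tested miRNAs were, and 1 of the 10 (higher in HFD) had an unadjusted p under 0.05, against 10.1% (4.93% higher and 5.17% lower). DESeq2 called 0 of the 10, against 0.739% of all tested, with 2 at an unadjusted p under 0.05, against 12.1%. A positive log2 fold change (HFD over NCD) was found for 7 of the 10, against 51.5% of all tested, and the median was 0.38, against 0.02. The 3 negative values were those of the 3 miR-23 products. With library totals as the only scaling, which moved the median of all miRNAs to -0.37, 5 of the 10 were positive and their median was -0.01, as miR-24-3p and miR-24-1-5p turned negative. With that scaling the log2 fold change was 0.44 for miR-27a-5p, 0.16 for miR-27a-3p, 0.16 for miR-27b-5p, 0.11 for miR-27b-3p and 0.046 for miR-24-2-5p. It was -0.50 for miR-23a-3p, -0.76 for miR-23b-3p and -1.31 for miR-23b-5p.

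The 5p strands of mir-27a and mir-27b were both higher in each HFD than in each NCD library on the TMM scale. miR-27a-5p had 44.2, 69.0 and 40.2 CPM in HFD 1, 2 and 3 and 23.3, 32.8 and 28.2 CPM in NCD 1, 2 and 3. Its log2 fold change was 0.85 ± 0.35 (SE; edgeR adjusted p = 0.480), and 0.54 without HFD 2. miR-27b-5p had 27.1, 33.1 and 37.0 CPM in the HFD and 25.7, 22.4 and 20.3 CPM in the NCD libraries, where HFD 1 and NCD 1 lay close together. Its log2 fold change was 0.52 ± 0.34 (edgeR adjusted p = 0.582).

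The 3p strands of the same hairpins overlapped between diets. miR-27b-3p had 7297, 4362 and 5419 CPM in the HFD and 3978, 5989 and 2929 CPM in the NCD libraries, with HFD 1 highest and NCD 3 lowest. miR-27a-3p had 204, 118.5 and 165.8 CPM in the HFD and 78.2, 137 and 114 CPM in the NCD libraries, so that HFD 2 lay below NCD 2. Their log2 fold changes were 0.41 ± 0.34 and 0.57 ± 0.34 (SE), with edgeR adjusted p of 0.629 and 0.572. Without HFD 1 the value for miR-27b-3p was 0.15, without NCD 3 0.19 and without NCD 2 0.71. For miR-27a-3p it was 0.34 without HFD 1 and 0.31 without NCD 1.

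The miR-24 products came out close to each other in their diet difference. miR-24-3p, a repressor of cell-cycle genes, had 1740, 1633 and 1869 CPM in the HFD and 1129, 1471 and 1488 CPM in the NCD libraries, and NCD 1 was the low one. Its log2 fold change was 0.36 ± 0.29 (edgeR adjusted p = 0.627) and 0.17 without NCD 1. miR-24-1-5p had 11.1, 12.4 and 12.4 CPM in the HFD and 8.60, 10.97 and 10.2 CPM in the NCD libraries, a log2 fold change of 0.26 ± 0.38, which was 0.11 without NCD 1. The diets did not overlap in either, though HFD 1 and NCD 2 of miR-24-1-5p lay close together. miR-24-2-5p had 23.2, 23.7 and 31.7 CPM in the HFD and 16.0, 23.3 and 19.3 CPM in the NCD libraries, which overlapped, and its log2 fold change of 0.42 ± 0.36 was 0.22 without HFD 3 and 0.24 without NCD 1.

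None of the miR-23 products passed the test. miR-23a-3p had 39.5, 41.9 and 49.2 CPM in the HFD and 37.8, 45.1 and 52.7 CPM in the NCD libraries, and miR-23b-3p 85.8, 88.6 and 100.8 CPM and 87.2, 111.6 and 138.7 CPM. Both were highest in NCD 3. Their log2 fold changes were -0.06 ± 0.32 and -0.30 ± 0.31 (edgeR adjusted p = 0.944 and 0.701), and without NCD 3 they were 0.060 and -0.13, without NCD 1 -0.24 and -0.52. miR-23b-5p, the rare strand, had 3.56, 2.15 and 2.46 CPM in the HFD and 7.27, 4.71 and 4.48 CPM in the NCD libraries. Each HFD library lay below each NCD library, and its log2 fold change was -0.96 ± 0.49 (edgeR adjusted p = 0.505).

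In all, 4 members (miR-27a-5p, miR-27b-5p, miR-24-3p and miR-24-1-5p) were higher in each HFD than in each NCD library, which held for 10.3% of all tested, and miR-23b-5p was lower in each, as were 4.93%, together 5 of 10 against 15.3%. This count depended on the scaling. With library totals only, 0 members were higher without overlap, against 2.46% of all tested, and miR-23b-5p was still lower, as were 9.11%, together 1 of 10 against 11.6%. In each of the 4 members named first, NCD 3, whose TMM factor was 1.73, then lay above HFD 1. The arm and paralog ratios above are taken within a library and do not depend on the scaling.

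**Figure D4:**
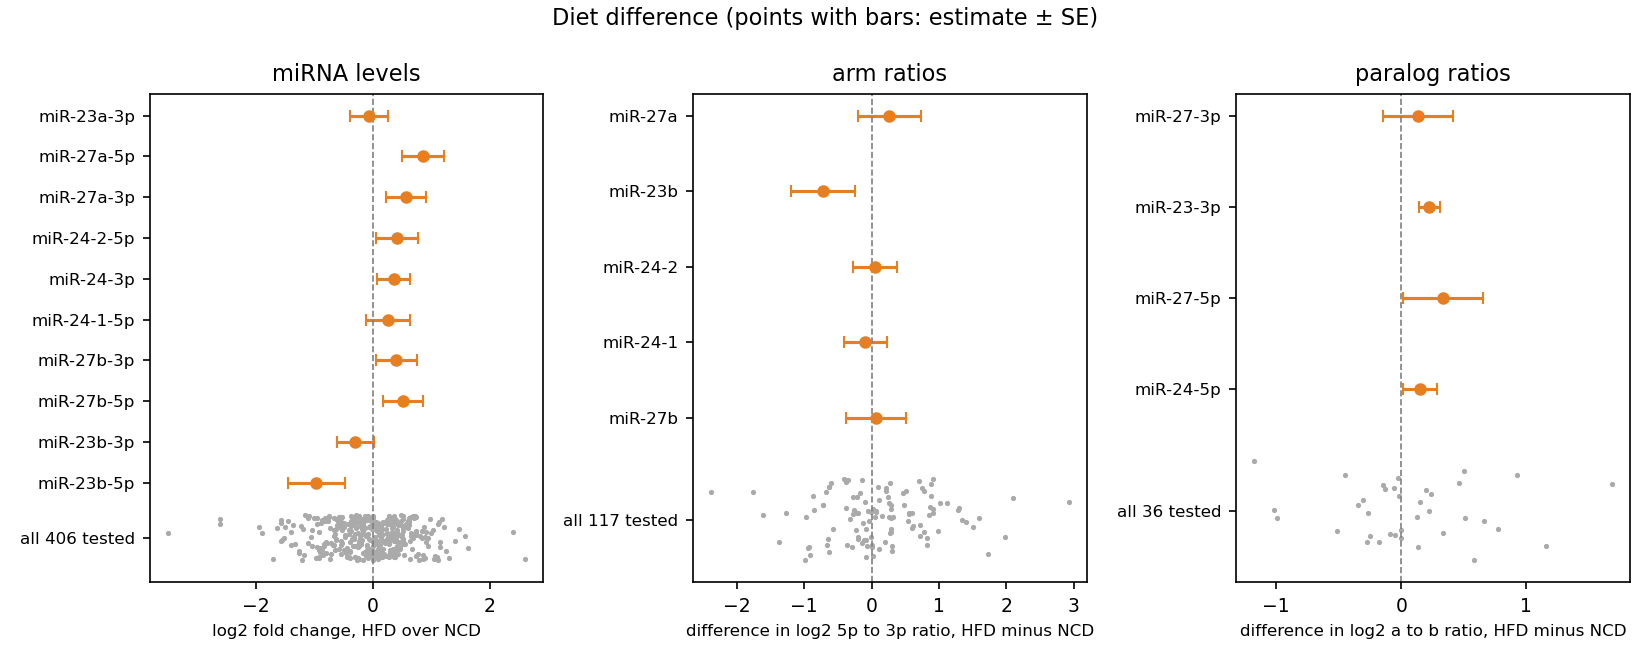
Diet differences of levels, arm ratios and paralog ratios on the log2 scale. Orange points are the estimates of the members with their SE, and grey points are all miRNAs, arm pairs or paralog pairs tested, spread vertically at random. The grey points include the members, so no member can lie outside their range.

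The miR-3074 hairpins are annotated on the opposite strand of mir-24. miR-3074-5p, miR-3074-2-3p and miR-3074-1-3p are reverse complements of miR-24-3p, miR-24-2-5p and miR-24-1-5p over 20 bases. They held 91969, 1341 and 622 reads over the 6 libraries, beside 92010, 1352 and 642 for the miR-24 products, and differed from them by at most 19, 8 and 8 reads in a library. The miR-3074 rows were therefore not read as a separate measurement.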

How the data were processed

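Small RNA libraries had been made from total islet RNA with a ligation-based kit, per the labels' protocols, and such libraries capture some miRNA ends better than others. The deposited table gives raw read counts per mature miRNA and TPM values, per the file headers. The deposited TPM values were not used, and all levels here were computed from the counts. For the aligner, the counting rule and the build: not given in the sources used here. Counts were tested with edgeR 4.0.16 (R 4.3.3): filterByExpr with a minimum count of 10, TMM factors and the quasi-likelihood test with diet as the only term, adjusted by Benjamini-Hochberg over 406 miRNAs. Log2 ratios of arms and of paralogs, with 0.5 added to each count, were tested with limma 3.58.1 over all pairs. For single ratios two-sided exact permutation tests were used. DESeq2 1.42.0 and other scalings, filters and libraries left out were alternatives. The steps were tested on simulated data.

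The members, lists and tests were chosen with earlier results of these data known. Named miRNAs are the members, rows of the opposite strand or the same hairpin, miRNAs sharing a seed, the 3 closest in pattern to each of 3 members, and cell type markers. The miR-467, miR-146, miR-126-3p and miR-486 pairs are named as exceptions. Same-numbered replicates were not taken as pairs. Libraries of 1 diet differed by 481 to 2456 in chi-square per degree of freedom, above counting noise, so none was counted as a library deposited again. This does not tell separate animals from separate preparations of 1 RNA.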

Additional observations from a re-analysis of the deposited data

How the results depend on the processing

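Depth limits the rare strands most: miR-23b-5p rests on 17 to 63 reads in a library, and a count of 0 allows up to 0.213 to 0.445 CPM (3 counts of the scaled total, counting error only). Without a filter 8 miRNAs were called, with DESeq2 3 and with library totals only 0, against 1 in the test reported. Leaving out 1 library gave 0 (NCD 1) to 4 (NCD 2), and 3 without NCD 3. None of the 10 members was called in any of these. The number of paralog pairs called, 0 at first, was 1 with a mean of at least 100 counts and 1 with the replicate block, the miR-146 pair each time, and 0 to 1 when 1 library was left out. The number of arm ratios called was 0 under all 11 alternatives. Leaving out the miR-3074 rows and the legacy quasi-likelihood fit were chosen after the data were seen and left the counts they were run on as they were. Of the 6 comparisons of a to b ratios, 5 passed at first and with 5 added to each count, and 0 with any library left out, where 5 libraries cannot pass. The log2 difference between miR-27-3p and miR-27-5p then ran from -5.76 to -5.54.

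Signs turned for values near 0. With library totals only miR-24-3p was at -0.069 and miR-24-1-5p at -0.13 on the log2 scale, and miR-23a-3p ran from -0.24 without NCD 1 to 0.060 without NCD 3. The arm ratio difference of mir-27a was -0.18 without HFD 2 and 0.53 without HFD 1. That of mir-27b was -0.13 without HFD 2, -0.056 without HFD 3, -0.21 without NCD 2 and 0.38 without HFD 1, and that of miR-24-2-5p -0.039 without HFD 3, -0.013 without NCD 3 and 0.14 without HFD 1. The paralog difference of miR-27-3p was -0.066 without NCD 1 and 0.43 without NCD 3. For all of these the cause was not tested. miR-23b-5p and the mir-23b arm ratio had no value with a mean of at least 100 counts.

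By their labels, same-numbered libraries share only a number. The deviations of such libraries correlated at 0.17, -0.24 and 0.35 over miRNAs for numbers 1, 2 and 3. These values cannot tell if such libraries shared a batch or a day. With the replicate block 1 miRNA, 0 arm ratios and 1 paralog pair were called, none of them a member.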

Other observations

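The 5p strand of mir-23a was almost undetected. miR-23a-5p had 4 reads in NCD 1, 4 in NCD 3 and 0 in the other 4 libraries, and was not tested.

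In HFD 2 the log2 ratio of 5p to 3p of mir-27a lay 1.23 above the mean of the other 5 libraries. Of the 117 arm pairs, 10 including mir-27a were at least as far above in this library, and 16 were at least as far in either direction. The median deviation of all pairs in HFD 2 was 0.07.

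Products of 1 cluster differed in how closely they followed each other across the 6 libraries, whose levels share the scaling. As a description, the Pearson r of log2 CPM was 0.48 between miR-27a-5p and miR-27a-3p, 0.35 between miR-27b-5p and miR-27b-3p, and 0.18 between miR-23a-3p and miR-27a-3p. Within a cluster it was also 0.75 between miR-27a-3p and miR-24-2-5p and 0.62 between miR-27b-5p and miR-24-1-5p. Negative values were found within a cluster too. They included -0.54 between miR-23b-3p and miR-27b-3p and -0.72 between miR-23b-5p and miR-27b-5p. Between paralogs it was 0.88 for miR-23-3p, 0.74 for miR-27-3p, 0.64 for miR-27-5p and 0.91 for miR-24-5p. The paralogs of the 2 3p pairs differ by 1 base, and the part of reads that match both was not tested. The lowest of all pairs of members was -0.95, between miR-24-1-5p and miR-23b-5p, which are of the same cluster. Among the 405 other tested miRNAs, the closest in pattern to miR-27a-5p were miR-431-3p (0.96), miR-370-5p (0.94) and miR-22-3p (0.93). Closest to miR-27b-3p were miR-101b-3p (0.96), miR-30f (0.95) and miR-598-3p (0.95). After miR-3074-5p, whose counts are nearly the same, miR-24-3p was closest to miR-148a-5p (0.98) and miR-341-5p (0.96).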
